A study of Caenorhabditis elegans with 12 samples.

Results

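The 10 genes described here encode subunits of the X-chromosome dosage compensation complex of Caenorhabditis elegans. They are sdc-1, sdc-2, sdc-3, dpy-21, dpy-26, dpy-27, dpy-28, dpy-30, mix-1 and capg-1, found by symbol among the 46726 gene IDs of the deposited counts table. They were looked at because X-linked genes were more often higher in mir-71 mutants than in N2 at day 5 of adulthood. For that reason differences of the 10 genes between the genotypes at day 5 are described without a test. Poly(A)-selected RNA came from whole animals of the wild type N2 or of strain MT12993, which carries the n4115 allele of the microRNA gene mir-71, at day 0 or day 5 of adulthood, with 3 libraries in each of the 4 groups. Animals of all groups were kept at 20 °C and were put soon after the final molt on plates that held 5-fluorodeoxyuridine at 0.1 mg/mL, a drug that blocks DNA synthesis and keeps progeny from developing. Age and time on the drug therefore rose together and cannot be told apart.

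In worms the complex binds both X chromosomes of XX hermaphrodites and lowers transcription from them, so that their X-linked output matches that of XO males. SDC-2, made in XX embryos, brings the complex to the X together with SDC-3 and DPY-30, and SDC-1, SDC-2 and SDC-3 also repress the male-promoting gene her-1. A condensin lies at its core, with the SMC proteins MIX-1 and DPY-27, the kleisin DPY-26 and the subunits DPY-28 and CAPG-1. MIX-1, DPY-26, DPY-28 and CAPG-1 also serve condensin I on all chromosomes, where SMC-4 takes the place of DPY-27, and MIX-1 and SMC-4 serve condensin II. DPY-21 is a histone demethylase that enriches monomethylated H4K20 on the X, and DPY-30 is shared with the COMPASS complexes that methylate H3K4.

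Total counts per library were 20.5 to 65.2 M (mega). Counts were scaled to counts per M of library total (CPM) with TMM factors, which correct library totals for differences in makeup. The first principal component of log2 CPM held 80.8% of the variance and separated the ages. On it the day 0 libraries numbered 1 lay nearest to day 5, at -82.9 in N2 and -75.4 in mutants, against -153 to -104 in the other day 0 libraries. The gene mir-71 itself had 0 counts in every library, so it checks no label here. Its host gene ppfr-1 lay at 151 to 191 CPM in N2 libraries and at 466 to 841 CPM in mutant libraries. These are bulk values of whole animals, so fewer cells of a type and less RNA per cell cannot be told apart.

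The genes lie on 6 chromosomes of WBcel235, and sdc-2 (WBGene00004746; X, 11522707 to 11533450) and sdc-1 (WBGene00004745; X, 16275763 to 16282534) are themselves X-linked. On chromosome V are sdc-3 (WBGene00004747; 15039148 to 15048207), dpy-21 (WBGene00001080; 17936282 to 17949193) and dpy-30 (WBGene00001088; 12191519 to 12192385). Chromosome III holds dpy-27 (WBGene00001086; 3813018 to 3819679) and dpy-28 (WBGene00001087; 10763131 to 10777076). The others are dpy-26 (WBGene00001085; IV, 12445801 to 12451335), mix-1 (WBGene00003367; II, 10824246 to 10841424) and capg-1 (WBGene00009254; I, 7634492 to 7639785). All 10 are annotated as protein-coding. Exons of dpy-30 overlap those of rnp-1 and exons of dpy-26 overlap those of C25G4.3 on the same strand, while mix-1 overlaps M106.8 on the opposite strand. Whether the libraries keep strand, and which read counter was used, were not given in the sources used here. Values of dpy-30, dpy-26 and mix-1 are therefore uncertain by the reads these neighbours share with them. The antisense gene anr-16, which overlaps sdc-2, had 1 count in all libraries together.

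All 10 genes were detected in every library, with sdc-2 the lowest in counts at no more than 843 and capg-1 reaching 11923, and all passed the filter on low counts. To set levels of different genes side by side, CPM were divided by the length of annotated exon (CPM per kb). On that scale the small subunit gene dpy-30 stood highest in all 4 groups, at 237 ± 10.7 in N2 at day 0 (SD, n = 3). The condensin genes shared with condensin I followed in N2 at day 0, capg-1 at 32.5 ± 1.79, dpy-26 at 26.1 ± 0.705, mix-1 at 19.6 ± 0.963 and dpy-28 at 15.9 ± 2.5 CPM per kb. Next came the demethylase gene dpy-21 at 14.6 ± 1.69 and then dpy-27, the SMC gene particular to the X-bound condensin, at 6.26 ± 0.474 CPM per kb. The 3 sdc genes were lowest, sdc-1 at 3.59 ± 0.561, sdc-3 at 1.91 ± 0.283 and sdc-2 at 0.748 ± 0.158 CPM per kb.

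That order was much the same in every group, with dpy-30 and capg-1 at the top and sdc-1, sdc-3 and sdc-2 at the bottom. In N2 at day 0 the neighbours mix-1 and dpy-28, and dpy-28 and dpy-21, had overlapping ranges over libraries, while the other neighbours did not overlap. In mutants at day 0 the overlapping neighbours were capg-1 and dpy-26, dpy-26 and mix-1, dpy-28 and dpy-21, and sdc-1 and sdc-3. At day 5 dpy-28 stood above mix-1 in both genotypes, at 20.7 ± 3.38 against 15.2 ± 0.803 CPM per kb in N2 and at 15.8 ± 1.27 against 13.3 ± 0.739 in mutants, and dpy-27 reached down to the level of sdc-1, with overlapping ranges.

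**Figure D1:**
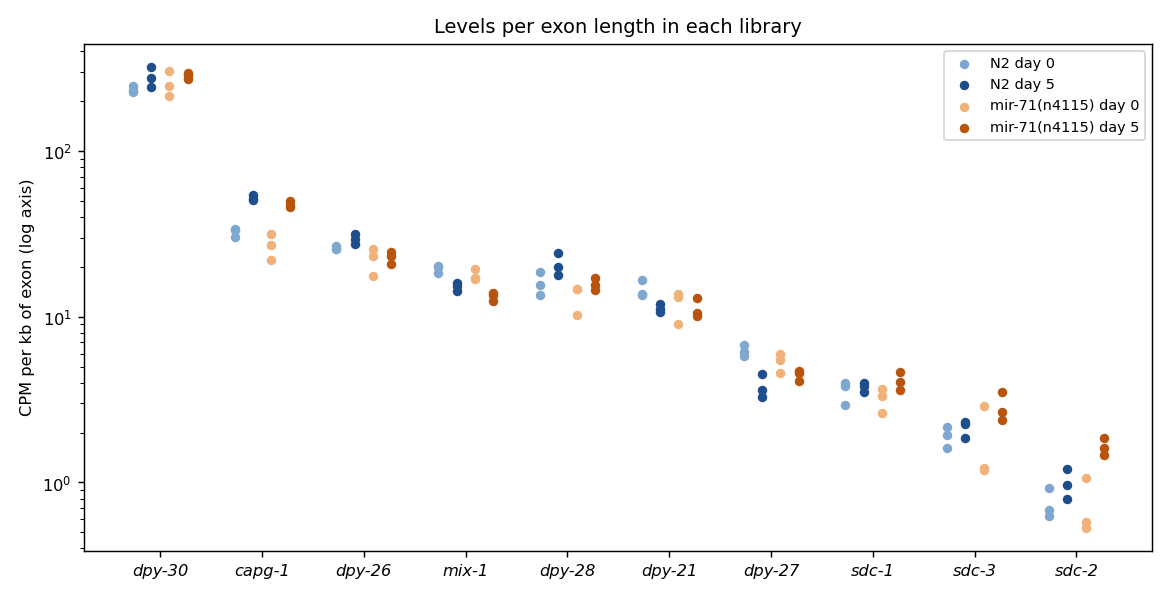
CPM per kb of exon (y, log axis) of the 10 genes (x, ordered by their level in N2 at day 0); each point is a library, coloured by group, 3 per group. The genes sdc-1, sdc-2 and sdc-3 lie lowest and dpy-30 highest in all 4 groups.

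With age, the genes of the complex that were called did not all move in the same direction. From day 0 to day 5 capg-1 rose and mix-1 fell in both genotypes, dpy-27 fell in N2, and sdc-2 rose in mutants. In N2 1 of the 10 genes rose and 2 fell. The test was edgeR's quasi-likelihood test, with adjusted p under 0.05 (Benjamini-Hochberg over all tested genes), by which 23.8% of the 16764 tested genes rose and 28.2% fell. In mutants 2 rose and 1 fell, where 24.9% of all tested genes rose and 27.4% fell. The median log2 fold change of the 10 genes was 0.17 in N2 and 0.21 in mutants, against -0.09 and 0.01 over all tested genes. With both directions together, 3 of the 10 genes were called in each genotype, beside 52.1% of all tested genes in N2 and 52.3% in mutants. The counts of the 10 genes were not tested against these shares, and by direction they lay near them. Without mutant day 0 replicate 1, 5 were called in N2, with dpy-21 and dpy-28 in addition. Each of these 6 calls was also made under all 21 alternative settings, which include leaving out each library in turn.

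**Figure D2:**
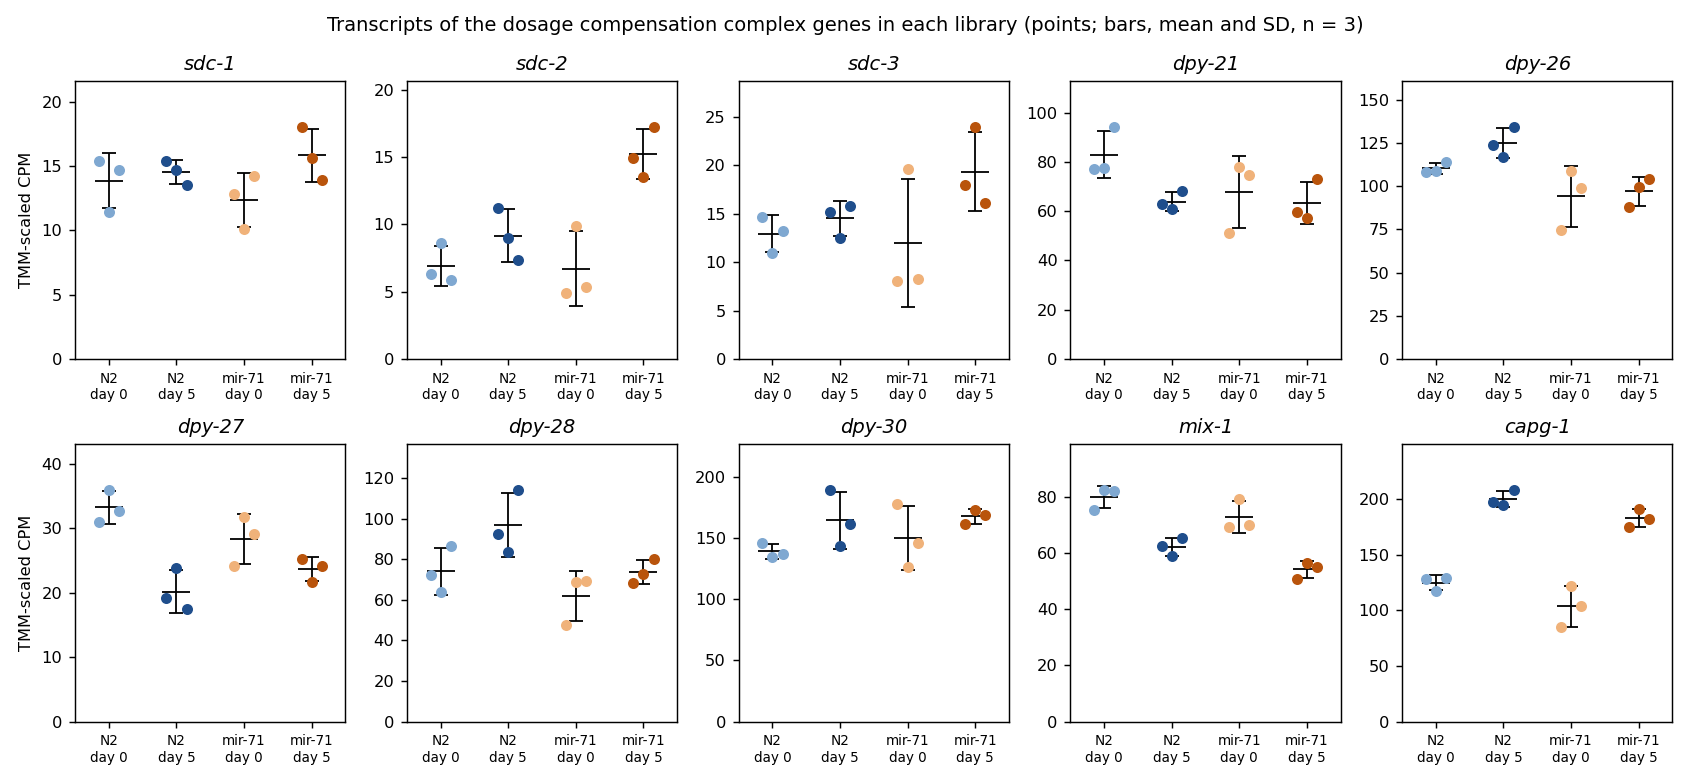
TMM-scaled CPM (y, linear from 0) of each gene in the 4 groups (x); points are libraries and bars are the mean and SD, n = 3. The 3 day 5 libraries of capg-1 lie above and those of mix-1 below the 3 day 0 libraries in each genotype, and sdc-2 in mutants at day 5 lies above all other groups.

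Among the sdc genes, sdc-2 was the 1 that was called, and it rose in mutants. That test uses the mutant day 5 libraries, which are also part of the contrast that led to these genes. sdc-2 is itself X-linked, and 26.7% of tested X-linked genes rose with age in mutants. sdc-2 stood at 6.34, 8.59 and 5.84 CPM in N2 at day 0 (replicates 1, 2 and 3) and at 11.2, 8.98 and 7.33 CPM at day 5. In mutants it went from 4.92, 9.89 and 5.32 CPM at day 0 to 14.9, 13.5 and 17.2 CPM at day 5. The N2 groups overlapped, while all mutant day 5 libraries lay above all mutant day 0 libraries, of which replicate 2 was the highest. The rise in mutants was 2.26-fold (log2 1.17 ± 0.28 SE, n = 3, edgeR adjusted p = 0.00408), and in N2 the log2 fold change was 0.41 ± 0.28 (95% interval -0.21 to 1.02, adjusted p = 0.25).

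The X-recruiting zinc finger gene sdc-3 had a similar set of values and did not pass the test in either genotype. It stood at 14.7, 10.9 and 13.2 CPM in N2 at day 0 and at 15.2, 12.5 and 15.8 CPM at day 5. In mutants the values were 8.09, 19.6 and 8.27 CPM at day 0 and 18, 23.9 and 16.1 CPM at day 5. Mutant replicate 2 at day 0 stood above the other libraries of its group, as it did for sdc-2, and lay within the day 5 range. The log2 fold change in mutants was 0.69 ± 0.31 (adjusted p = 0.0822), and without mutant day 0 replicate 2 it was 1.24 (adjusted p = 0.000622). In N2 it was 0.16 ± 0.31 (adjusted p = 0.681).

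For sdc-1, another zinc finger gene of the complex, groups overlapped throughout, between 10.1 and 18 CPM over all libraries. Its log2 fold change with age was 0.07 ± 0.19 in N2 (95% interval -0.34 to 0.48, adjusted p = 0.778) and 0.36 ± 0.19 in mutants (-0.05 to 0.76, adjusted p = 0.128).

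The demethylase gene dpy-21 stood at 77.2, 77.7 and 94 CPM in N2 at day 0 and at 62.8, 60.7 and 68.2 CPM at day 5, so the N2 ages did not overlap. Its log2 fold change in N2 of -0.38 ± 0.16 just missed the threshold (adjusted p = 0.0723). It was called under 5 of the alternatives, among them the fit without mutant day 0 replicate 1 (-0.39, adjusted p = 0.0153) and the fit of the N2 groups alone (-0.40, adjusted p = 0.0213). In mutants dpy-21 lay at 51, 77.8 and 74.7 CPM at day 0 and at 59.5, 57.2 and 73.1 CPM at day 5, which overlap (log2 -0.10 ± 0.16, adjusted p = 0.636).

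For dpy-30, the subunit shared with COMPASS, no change was called. It stood at 146, 134 and 137 CPM in N2 at day 0 and at 189, 143 and 161 CPM at day 5, with log2 fold changes of 0.24 ± 0.14 in N2 (adjusted p = 0.165) and 0.16 ± 0.14 in mutants (adjusted p = 0.344). The gene rnp-1, whose exons it overlaps, rose by 0.66 ± 0.12 in N2 (adjusted p = 0.000515) and by 0.42 ± 0.12 in mutants (adjusted p = 0.00898).

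The condensin genes split. The HEAT-repeat subunit gene capg-1 had 128, 117 and 129 CPM in N2 at day 0 and 197, 195 and 208 CPM at day 5. In mutants it had 84.8, 122 and 104 CPM at day 0 and 175, 191 and 182 CPM at day 5. Every day 5 library of either genotype was higher than every day 0 library. The rise was 1.61-fold in N2 (log2 0.68 ± 0.13, adjusted p = 0.000702) and 1.77-fold in mutants (log2 0.82 ± 0.13, adjusted p = 0.000183).

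mix-1, whose SMC protein is shared by all 3 worm condensins, went the other way. It had 75.3, 82.3 and 81.8 CPM in N2 at day 0 and 62.3, 58.8 and 65.3 CPM at day 5. In mutants it had 69.3, 79.3 and 69.8 CPM at day 0 and 50.7, 56.5 and 55.1 CPM at day 5. The ages did not overlap in either genotype. The log2 fold change was -0.36 ± 0.10 in N2 (adjusted p = 0.0117) and -0.43 ± 0.10 in mutants (adjusted p = 0.00429). The opposite-strand neighbour M106.8 moved in the other direction, by 1.07 ± 0.20 in N2 (adjusted p = 0.000659) and 0.89 ± 0.20 in mutants (adjusted p = 0.00226).

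dpy-27, the SMC gene that marks the X-bound condensin, fell in N2. Its values there were 31, 35.9 and 32.7 CPM at day 0 and 19.2, 23.9 and 17.4 CPM at day 5. All N2 day 5 libraries lay below all N2 day 0 libraries, a 1.64-fold fall (log2 -0.72 ± 0.16, adjusted p = 0.00234). In mutants the groups overlapped, with 24.1, 31.8 and 29.1 CPM at day 0 and 25.2, 21.6 and 24.2 CPM at day 5. The log2 fold change there was -0.26 ± 0.16 (95% interval -0.60 to 0.08, adjusted p = 0.187), and without mutant day 0 replicate 1 it was -0.41 (adjusted p = 0.0499). An effect past the threshold in N2 alone does not show that the genotypes differ, and the difference between the changes is described below without a test.

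The kleisin gene dpy-26 and the HEAT-repeat gene dpy-28 were not called with age. dpy-26 had 108, 109 and 114 CPM in N2 at day 0 and 124, 117 and 134 CPM at day 5, ranges that did not overlap (log2 0.18 ± 0.14, adjusted p = 0.287). dpy-28 had 72.1, 63.6 and 86.6 CPM at day 0 and 92.6, 83.3 and 114 CPM at day 5, which overlap (log2 0.38 ± 0.17, adjusted p = 0.083). Leaving out N2 day 0 replicate 3 put dpy-28 past the threshold (0.51, adjusted p = 0.0481), as did leaving out mutant day 0 replicate 1 (0.37, adjusted p = 0.0407). C25G4.3, which shares exon sequence with dpy-26, was at -0.45 ± 0.20 in N2 (adjusted p = 0.0787) and fell by 1 on the log2 scale in mutants (adjusted p = 0.00125). In mutants the log2 fold changes were 0.04 ± 0.14 for dpy-26 and 0.25 ± 0.17 for dpy-28 (adjusted p = 0.827 and 0.25).

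Counted by libraries, the ages did not overlap in N2 for 2 genes that were higher at day 5, dpy-26 and capg-1, and for 3 that were lower, dpy-21, dpy-27 and mix-1. Over all tested genes 28.6% lay apart with day 5 higher and 33.4% with day 5 lower. In mutants sdc-2 and capg-1 lay apart upward and mix-1 downward, where 29.1% and 30% of all tested genes did.

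**Figure D3:**
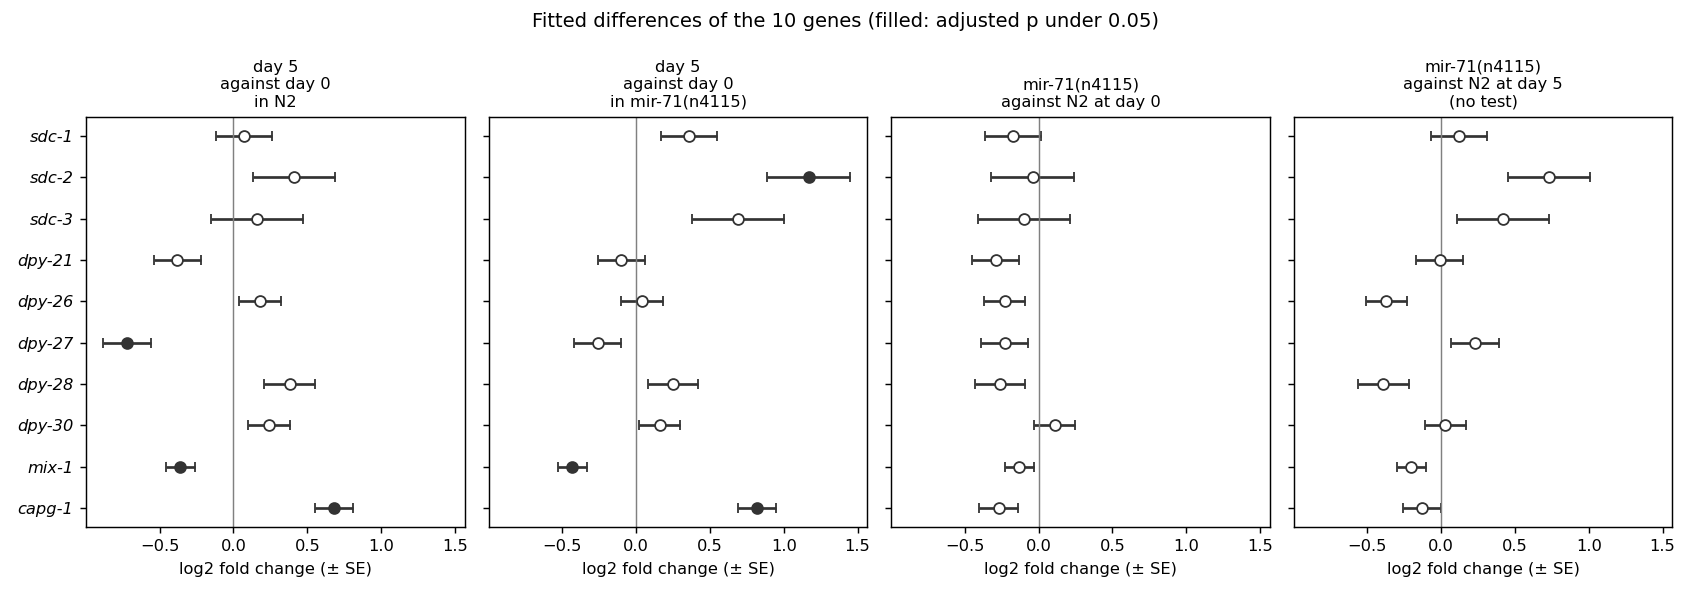
Log2 fold changes (x, ± SE) of the 10 genes (y) with age in N2, with age in mir-71 mutants, between genotypes at day 0 and between genotypes at day 5. Filled circles passed the test; the last panel is a description with no test. The filled circles are dpy-27, mix-1 and capg-1 in N2 and sdc-2, mix-1 and capg-1 in mutants.

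Markers of other tissues moved with age as well. The summed level of 14 oocyte genes was 5190 to 8330 CPM in N2 at day 0 and 14800 to 20400 CPM at day 5, and 5490 to 7420 against 13200 to 16200 CPM in mutants. All 14 rose in each genotype. Of 14 germline and meiosis genes 6 rose and 2 fell in N2, with sums of 2470 to 3110 CPM at day 0 and 2560 to 3580 CPM at day 5. In mutants 3 rose and 3 fell, with sums of 2250 to 2650 and 2010 to 2550 CPM. Of 13 sperm genes 12 fell and 1 rose in each genotype, with sums of 565 to 1610 CPM over all day 0 libraries and 28.2 to 37.1 CPM over all day 5 libraries.

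All 8 muscle genes fell in each genotype, from sums of 7130 to 16600 CPM over the day 0 libraries to 1430 to 2830 CPM at day 5. Zygotic embryo genes were near 0 in every library, with sums over 12 genes of 1.26 to 2.36 CPM at day 0 and 3.19 to 5.86 CPM at day 5. Of the 6 that were tested, 5 rose in N2, and 4 rose and 1 fell in mutants. In this list med-1 and med-2 were at 0 in 9 and 8 libraries. MIX-1, DPY-26, DPY-28 and CAPG-1 also act in germ cells, and the part of tissue makeup in the changes of these genes was not tested.

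At day 0 the genotypes were close for all 10 genes. None was called, where 22 of 16764 genes (0.131%) were, 0.0716% higher and 0.0597% lower in mutants, and none had an unadjusted p under 0.05. That number over all genes was itself unsteady, at 61 with DESeq2, 0 when the day 0 groups were fitted alone, and 9, 8 and 5 without N2 day 0 replicates 1, 2 and 3. It was 14 and 6 without mutant day 0 replicates 1 and 3 and 11 without both libraries numbered 1. The ranges over libraries overlapped for every member, where 5.02% of all tested genes lay apart with mutants higher and 4.3% with mutants lower. 9 of the 10 log2 differences were below 0, with a median of -0.20 against 0 over all tested genes, and dpy-30 stood at 0.11. The largest sizes were -0.29 ± 0.16 for dpy-21 (95% interval -0.65 to 0.07), -0.27 ± 0.13 for capg-1 (-0.54 to 0.01) and -0.26 ± 0.17 for dpy-28 (-0.64 to 0.12), each with an adjusted p = 0.906 by edgeR. The interval of sdc-2 ran from -0.65 to 0.57 and that of sdc-3 from -0.77 to 0.58, so differences of that size are not shown to be absent. Mutant replicate 1 had the lowest level among the 6 day 0 libraries for 8 of the 10 genes, all but sdc-1 and dpy-30, and the highest of dpy-30. For some of them mutant replicate 3 was close, as for sdc-3 at 8.27 against 8.09 CPM. The share of all tested genes that were lowest in mutant replicate 1 was not counted. Same-numbered day 0 libraries of the genotypes deviated together. Within these pairs sdc-1, dpy-27 and mix-1 were lower in the mutant in 3 of 3, dpy-30 in 1 and the others in 2. How many of all tested genes were lower in 3 of 3 was not counted, so nothing is read from this. With the pairs as a block none of the 10 genes was called, and their log2 differences were -0.30 to 0.10.

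At day 5 the recruiter gene sdc-2 lay higher and several condensin genes lay lower in mutants than in N2. sdc-2 was at 15.2 ± 1.85 CPM in mutants against 9.17 ± 1.95 CPM in N2 (SD, n = 3; 1.66-fold), and sdc-3 at 19.4 ± 4.06 against 14.5 ± 1.72 CPM. For these 2 genes every mutant library lay above every N2 library. Every mutant library lay below every N2 library for 4 condensin genes. These were dpy-26 at 96.9 ± 8.23 against 125 ± 8.71 CPM, dpy-28 at 73.6 ± 5.92 against 96.7 ± 15.8, mix-1 at 54.1 ± 3.01 against 62.1 ± 3.27 and capg-1 at 183 ± 8.07 against 200 ± 7.03 CPM. Their log2 differences were below 0 at day 0 too, with overlapping ranges, at -0.23 for dpy-26, -0.26 for dpy-28, -0.13 for mix-1 and -0.27 for capg-1. Over all tested genes 22.3% lay apart upward and 16.1% downward, and 7.63% were called higher and 3.1% lower. Because this contrast led to these genes, nothing is read from their count.

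For sdc-1, dpy-21, dpy-27 and dpy-30 the day 5 ranges overlapped. The log2 differences at day 5 were 0.73 for sdc-2, 0.42 for sdc-3, 0.23 for dpy-27 and 0.12 for sdc-1, then 0.03 for dpy-30, -0.01 for dpy-21, -0.13 for capg-1, -0.20 for mix-1, -0.37 for dpy-26 and -0.39 for dpy-28. The 10 genes had a median of 0.01 where all tested genes had 0.05. The genotypes' changes with age differed (mutants minus N2) by 0.77 ± 0.40 for sdc-2, 0.52 ± 0.44 for sdc-3 and 0.46 ± 0.22 for dpy-27, and by -0.14 to 0.29 for the other 7. For sdc-2 and sdc-3 these values moved with single day 0 libraries. Without mutant day 0 replicate 2 they were 1.17 for sdc-2 and 1.08 for sdc-3, and without mutant day 0 replicate 1 they were 0.55 and 0.28. Over all alternatives run, sdc-2 lay between 0.54 and 1.17, sdc-3 between 0.18 and 1.08 and dpy-27 between 0.28 and 0.55.

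The level of dpy-27 was set against that of its relative smc-4 as a ratio, both per kb of exon. The ratio leaves out mix-1 and was taken in whole animals, so it also follows tissue makeup. In N2 the ratio was 0.127, 0.158 and 0.128 at day 0 and 0.0959, 0.12 and 0.0799 at day 5. All N2 day 5 libraries were lower, with a mean log2 ratio of -3.36 ± 0.29 against -2.87 ± 0.18 (SD, n = 3; two-sided exact permutation p = 0.1, the smallest that 3 against 3 can give). In mutants the ratio was 0.131, 0.146 and 0.137 at day 0 and 0.165, 0.119 and 0.131 at day 5, with mean log2 ratios of -2.86 ± 0.08 and -2.87 ± 0.24 (exact permutation p = 1). smc-4 itself stood at 226 CPM in N2 at day 0 and 193 CPM at day 5 and was not called in either genotype (log2 -0.23 ± 0.11 and -0.24 ± 0.11, adjusted p = 0.104 and 0.091). It was called in mutants without mutant day 0 replicate 1 (adjusted p = 0.0208), without both day 0 libraries numbered 1 (adjusted p = 0.0497) or without N2 day 5 replicate 2 (adjusted p = 0.0381), and with upper-quartile factors in both genotypes (adjusted p = 0.00994 in N2 and 0.0257 in mutants).

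The genes that work with the complex were grouped in 7 lists, and none of their counts was tested against the complex's own. Their counts stand beside the 23.8% of all tested genes that rose and 28.2% that fell in N2, and the 24.9% and 27.4% in mutants. Of the other 4 condensin genes, which build condensins I and II, 2 rose and 1 fell in N2 and 1 rose and 1 fell in mutants, with medians of 0.09 and 0.05. The condensin II genes capg-2 and hcp-6 moved apart, capg-2 by 1.1 ± 0.18 in N2 and 0.81 ± 0.18 in mutants (adjusted p = 0.000244 and 0.00202), hcp-6 by -0.68 ± 0.14 and -1.03 ± 0.14 (adjusted p = 0.00127 and 6.43e-05). Another condensin II gene, kle-2, was at 0.42 ± 0.14 in N2 (adjusted p = 0.026). That call was lost with upper-quartile factors (adjusted p = 0.0882) and without any 1 of 4 N2 libraries, day 0 replicates 2 and 3 and day 5 replicates 1 and 3 (adjusted p of 0.0502 to 0.107). In mutants kle-2 was at 0.35 (adjusted p = 0.056), and it was called without mutant day 5 replicate 1 (adjusted p = 0.0433) and with the replicate block (adjusted p = 0.0466).

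All 4 genes of the list for H4K20 methylation and X anchoring, which also took in the histone variant gene htz-1, rose in both genotypes. The medians were 0.98 in N2 and 0.94 in mutants. They were set-4, for di- and trimethylation of H4K20 (0.97 ± 0.12 and 0.90 ± 0.12), htz-1, which encodes the histone variant H2A.Z (0.99 ± 0.13 and 0.98 ± 0.13), and cec-4, which tethers heterochromatin to the nuclear envelope (1.23 ± 0.16 and 1.21 ± 0.16), with adjusted p of 4.91e-05, 5.34e-05 and 5.78e-05 in N2. set-1, whose enzyme monomethylates H4K20, rose by 0.90 ± 0.22 in N2 (adjusted p = 0.00394). Its mutant value of 0.56 ± 0.21 (adjusted p = 0.0432) was not called under 13 of 21 alternatives, with an adjusted p of up to 0.171 without mutant day 0 replicate 3.

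Among 6 tested COMPASS partners of DPY-30, 4 rose and none fell in N2, and 4 rose and 1 fell in mutants, with medians of 0.66 and 0.45. ash-2 changed by 1.02 ± 0.12 and 1.06 ± 0.12 (adjusted p = 2.54e-05 and 1.88e-05) and wdr-5.1 by 0.73 ± 0.14 and 0.58 ± 0.14 (adjusted p = 0.000693 and 0.00311). cfp-1, for the subunit that reads CpG-rich DNA, changed by 0.59 ± 0.11 in N2 (adjusted p = 0.000618). In mutants its 0.32 ± 0.11 (adjusted p = 0.0236) was lost under 10 of 21 alternatives, with an adjusted p of up to 0.136 without mutant day 0 replicate 3. In the cohesin list 2 of 9 rose in N2 and 1 rose and 1 fell in mutants, with medians of 0.23 and 0.17. The mitotic kleisin gene scc-1 rose in both (0.58 ± 0.11 and 0.62 ± 0.11, adjusted p = 0.00105 and 0.000634). The call of rec-8, the meiotic kleisin gene, in N2 (0.45, adjusted p = 0.0335) was lost with upper-quartile factors (adjusted p = 0.0922). It was lost too without N2 day 0 replicate 1 or 2 or N2 day 5 replicate 1 or 3 (adjusted p of 0.0665 to 0.142). The same held without both day 0 libraries numbered 1 (adjusted p = 0.0651). scc-3 was not called in N2 or mutants (adjusted p = 0.0566 and 0.367). In N2 scc-3 was called with the replicate block (adjusted p = 0.0305) and without mutant day 0 replicate 1 (adjusted p = 0.043). It was called there too without N2 day 0 replicate 3 (adjusted p = 0.0469) or N2 day 5 replicate 2 (adjusted p = 0.0297). Of 5 SUMO pathway genes 3 rose in N2 and 2 in mutants, with medians of 0.42 and 0.27, among them the ligase gene gei-17 (0.47 ± 0.11 and 0.62 ± 0.11, adjusted p = 0.00275 and 0.000434). The conjugating enzyme gene ubc-9 and the activating enzyme gene uba-2 rose in N2 (0.42 and 0.69, adjusted p = 0.00351 and 0.00762) and stood at 0.25 and 0.27 in mutants (adjusted p = 0.0506 and 0.241), where ubc-9 was called without mutant day 5 replicate 3 (adjusted p = 0.0377).

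Upstream of the complex, the X-counting genes were mostly not called. Of 6 genes, the switch gene xol-1 and the X and autosome signal genes, 1 rose in N2 and 1 in mutants, with medians of 0.37 and 0.36. xol-1, which represses sdc-2 in XO embryos, was scarce at 0.621, 0.74 and 0.658 CPM in N2 at day 0 and at 1.23, 1.97 and 2.15 CPM at day 5. These do not overlap, and xol-1 rose by a log2 of 1.4 ± 0.32 in N2 (adjusted p = 0.00302). In mutants it was at 0.76 ± 0.31 (adjusted p = 0.0568). Its call there was made without mutant day 5 replicate 1 (adjusted p = 0.0399). The X signal genes sex-1 and ceh-39 stood at 0.52 ± 0.25 and -0.57 ± 0.29 in N2 and were not called (adjusted p = 0.101 and 0.112). In N2 sex-1 was called without N2 day 0 replicate 1 (adjusted p = 0.0163), without both day 0 libraries numbered 1 (adjusted p = 0.0157) and with limma on the rlog values (adjusted p = 0.0489). In mutants it was called without N2 day 0 replicate 2 (adjusted p = 0.0334), and ceh-39 was called in N2 without N2 day 0 replicate 2 (adjusted p = 0.0187).

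Downstream in sex determination 7 of 11 genes rose and 1 fell in N2, and 6 rose and 2 fell in mutants, with medians of 0.75 and 0.72. her-1, the male-promoting ligand gene that SDC proteins repress, lay near the floor at 4 to 22 counts in day 0 libraries and 18 to 64 counts in day 5 libraries. It rose by 2.12 ± 0.49 in N2 (mean 0.21 to 0.927 CPM, adjusted p = 0.00303). In mutants the 1.31 ± 0.46 (adjusted p = 0.0307) was lost when only the mutant groups were fitted (adjusted p = 0.0588) and without mutant day 0 replicate 2 or 3, mutant day 5 replicate 2 or N2 day 5 replicate 2 (adjusted p of 0.0527 to 0.131). tra-2, for the receptor of HER-1, rose by 1.02 ± 0.15 in N2 and 0.98 ± 0.15 in mutants (adjusted p = 0.000125 and 0.000172). fog-1, an RNA-binding regulator of sperm fate, rose by 2.94 ± 0.15 in N2 and 3 ± 0.16 in mutants (adjusted p = 5.2e-07 and 3.3e-07). The male-promoting gene fem-3 rose by 1.54 ± 0.21 and 1.2 ± 0.20 (adjusted p = 6.5e-05 and 0.000359), and the calpain gene tra-3 changed by -1.63 ± 0.16 and -1.43 ± 0.16 (adjusted p = 8.19e-06 and 1.74e-05).

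**Figure D4:**
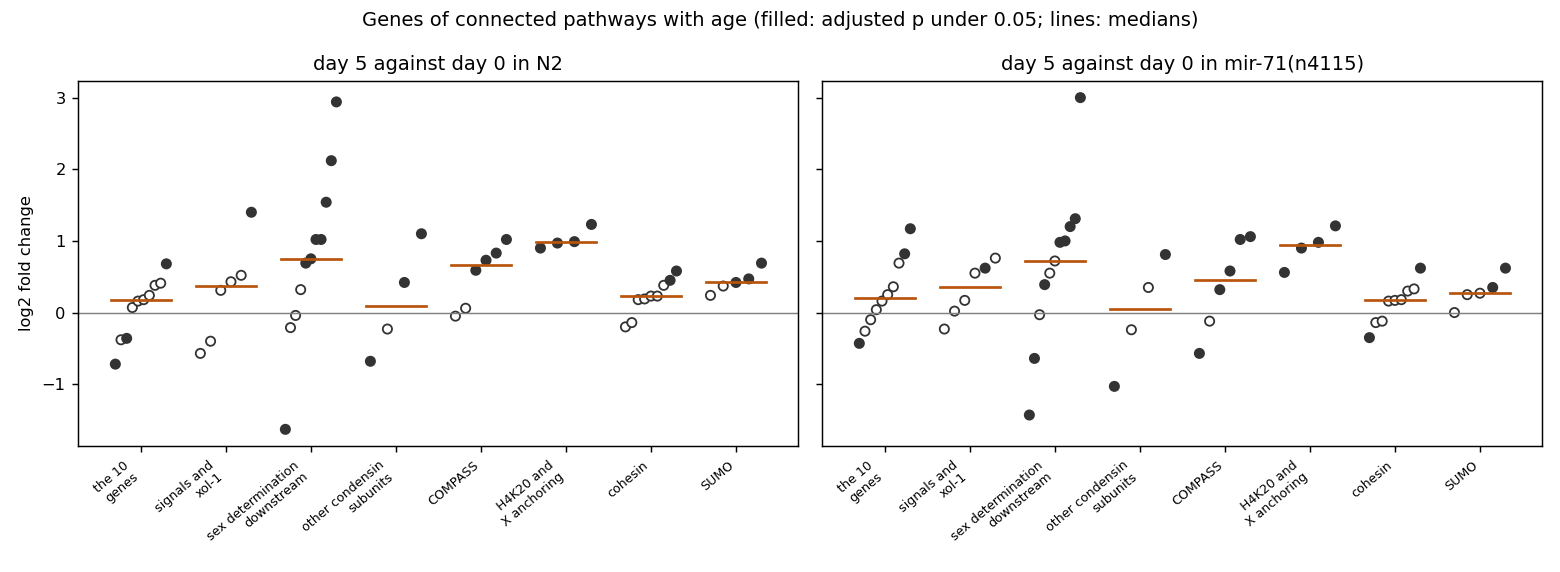
Log2 fold changes with age (y) of the 10 genes and of genes in 7 connected lists (x) in N2 and in mir-71 mutants. Each circle is a gene, filled where it passed the test, and lines are medians. The list for H4K20 methylation and X anchoring is the 1 list in which every gene is filled in both panels.

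Transcript levels of whole animals were described over 2304 tested X-linked and 14265 tested autosomal genes, with no test of the X against the autosomes. The shares of genes that rose or fell are those called by edgeR. Tissues were not separated, so these values do not measure the action of the complex. From day 0 to day 5 in N2, 14% of X-linked genes rose and 27.3% fell, against 25.6% and 28.4% of autosomal genes. In mutants 26.7% of X-linked genes rose and 18.7% fell, against 24.7% and 28.8% of autosomal genes. The median log2 fold change with age was -0.25 on the X and -0.05 on autosomes in N2, and 0.15 and -0.01 in mutants. Among the chromosomes the X had the lowest median in N2 and the highest in mutants. These medians weigh every gene alike, and the share of all counts that came from X-linked genes went the other way in N2, from 9.82 to 10.1% at day 0 to 12.7 to 15.7% at day 5. In mutants that share was 8.69 to 9.23% at day 0 and 11.8 to 17.6% at day 5, so the genotypes overlapped at day 5. Abundant genes weigh most in that share. The X-linked intestinal marker gene vit-2 alone went from a mean of 13600 CPM at day 0 to 58100 CPM at day 5 in N2. In mutants vit-2 went from 8700 to 48800 CPM. The share without vit-2 was not tested.

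Between genotypes at day 0 the X and autosomal medians were 0.02 and 0. At day 5, the contrast for which these genes were looked at, they were 0.39 and -0.01, with 14.9% of X-linked genes higher and 1.43% lower in mutants, against 6.53% and 3.37% of autosomal genes. By library, the median deviation of X-linked genes from their own mean over all libraries, minus that of autosomal genes, was 0.01, 0.02 and 0.01 in N2 at day 0 and -0.15, -0.06 and -0.29 at day 5. In mutants it was -0.08, 0.11 and -0.01 at day 0 and 0.32, 0.09 and 0.17 at day 5 on the log2 scale. The N2 day 5 libraries were thus the lowest apart from mutant day 0 replicate 1, which overlaps them. Mutants at day 5 were higher than N2 at day 5 in every library, and 1 of them overlapped the mutant day 0 range.

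Tissue markers differed between the genotypes at day 5 too. Sums of 8 neuronal genes were 616 to 710 CPM in mutants against 448 to 559 CPM in N2, and sums of 8 muscle genes were 2530 to 2830 against 1430 to 1660 CPM. All 8 genes of each list lay above 0 in the mutant to N2 difference, with medians of 0.47 and 0.73. All 14 oocyte genes and all 14 germline genes lay below 0, with medians of -0.20 and -0.33. Other lists were mixed. Of 10 intestinal genes 6 lay above 0 and 3 below, with a median of 0.36. Of 8 epidermal genes 7 lay above and 1 below (median 0.94). Of 13 sperm genes 10 lay above and 3 below (0.37), and of 6 tested zygotic embryo genes 1 and 5 (-0.30). The part of tissue makeup in the X-linked values was not tested.

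**Figure D5:**
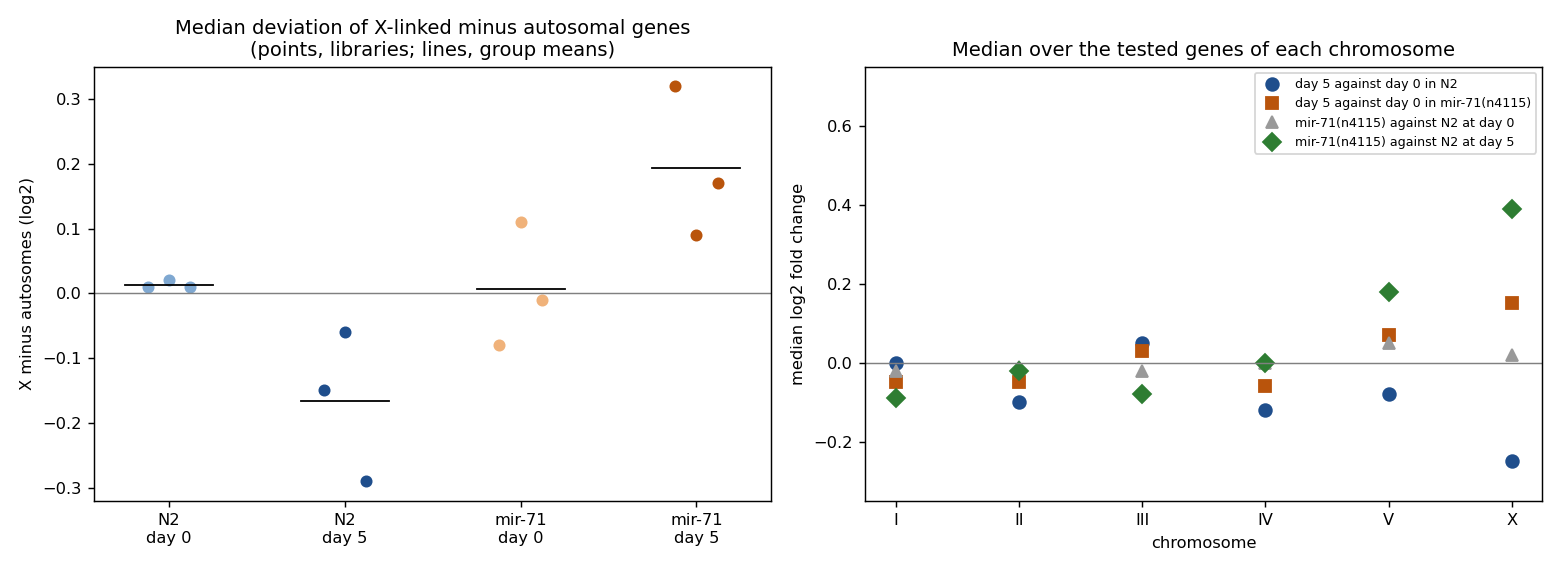
Left, median deviation of X-linked minus autosomal genes (y, log2) in each library by group, with lines at the group means. Right, median log2 fold change (y) over the tested genes of each chromosome (x) in 4 comparisons. On the left the N2 day 5 points lie at -0.06 to -0.29 and the mutant day 5 points at 0.09 to 0.32; on the right the X is lowest with age in N2, at -0.25, and highest between genotypes at day 5, at 0.39.

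Likeness was measured as the root mean square difference of centred log2 CPM over the 12 libraries. The tested genes outside the complex closest to the mean profile of the 10 genes were F10G7.10 (0.0652), arf-5 (0.076) and sdhd-1 (0.0789). Closest to sdc-2 were zip-2 (0.131), W09D6.5 (0.161) and svh-2 (0.174). Within the complex the most alike were dpy-26 and dpy-28 (0.15), then sdc-1 and dpy-30 and also dpy-21 and mix-1 (0.19 each), and the least alike were sdc-2 and mix-1 (0.74). The 10 genes did not share one profile, since their distances from their own mean ran from 0.166 for dpy-26 to 0.472 for sdc-2. By closeness to that mean sdc-2 ranked 7337 among the 16764 tested genes.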

How the data were processed

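Per the submitters' processing notes STAR 2.4.0h, DESeq2 and the build WBcel235 were used. The read counter, the annotation and the step that each tool served were not given in the sources used here. As deposited by the authors, the files hold whole-number read counts per gene, unscaled, and rlog (regularized log2) values of the same 12 libraries. The deposited log2 values served as an alternative only. Symbols came from the names table, and positions and exon lengths from Ensembl release 115 of WBcel235.

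In R 4.3.3, genes were kept by edgeR's filterByExpr (16764), library totals were multiplied by TMM factors (0.868 to 1.17), and 1 model of 4 group means was fitted with edgeR 4.0.16 (quasi-likelihood F-test, 8 residual degrees of freedom, Benjamini-Hochberg over all tested genes, threshold 0.05). The fit was tested on simulated data. Standard errors are the absolute log2 fold change over the square root of F; CPM divide counts by the scaled library totals, and log2 CPM used a prior count of 2. Averaged over genes, counting error is small beside the scatter between replicates, whose mean chi-square per gene was 28.7 to 313 on unscaled totals. That mean is weighted toward abundant genes and does not show this for genes with few counts, such as her-1 and xol-1. Per the series' design text the replicates are biological, and p-values set group differences against the spread between these libraries, estimated over all 4 groups.

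The members, lists and tests were chosen with earlier results of these data known. Named genes were the 10 members, per list the 3 with the smallest p with age in N2, and smc-4, set-1, her-1, xol-1 and tra-2. wdr-82, pqn-85 and ssp-9 did not match a single gene ID and were not used. Intestine, epidermis and neuron marker lists were summed too: with age in N2, 5 of 10 intestinal genes rose and 3 fell, 1 of 8 epidermal genes rose and 5 fell, and 1 of 8 neuronal genes rose and 2 fell. In mutants 5 intestinal genes rose and 1 fell, 1 epidermal gene rose and 5 fell, and 4 neuronal genes rose and 0 fell.

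Same-number libraries of the genotypes at day 0 deviated together (correlations 0.76, 0.66 and 0.28). In the other comparisons at least 1 correlation was below 0. The main fits have no block, and at day 0 the block changed no call of the 10 genes. Alternatives were other scaling factors, no filter, DESeq2 1.42.0, limma 3.58.1 on the rlog values, only the groups compared, the replicate number as a block, leaving out each library and, chosen after seeing the data, leaving out both day 0 libraries numbered 1.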

Additional observations from a re-analysis of the deposited data

How the results depend on the processing

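Over the 3 tested comparisons, the 10 genes kept their direction and their side of the threshold in 600 of 630 values under the alternatives, passed the threshold only under an alternative in 10 and changed sign in 20. No call was lost. All sign changes were of uncalled values: with age in mutants dpy-26 stood at -0.01 with RLE factors and with DESeq2, at -0.02 with upper-quartile factors, at -0.13 without both day 0 libraries numbered 1, and at -0.15 to 0.16 without single libraries. sdc-1 in N2 stood at -0.06 with upper-quartile factors and at -0.06 to 0.15 without single libraries, and dpy-21 in mutants at -0.32 to 0.01. Between genotypes at day 0, leaving out single libraries gave -0.44 to 0.15 for sdc-2, -0.66 to 0.13 for sdc-3 and -0.02 to 0.22 for dpy-30, and leaving out both libraries numbered 1 gave 0.09, 0.23 and 0. The cause was not tested. With the replicate block, 5 of the 10 genes were called with age in N2, dpy-21 and dpy-28 in addition (adjusted p = 0.0391 and 0.0366), and no other call of the 10 genes changed; the pairing did not hold there. Leaving out single libraries gave 3 to 5 called members in N2, 5 without mutant day 0 replicate 1, 3 to 4 in mutants and 0 at day 0. The count over all genes at day 0 was 22, 61 with DESeq2, 0 when only the groups compared were fitted, 11 without both libraries numbered 1, 26 with the block and 5 to 19 without single libraries. The median difference between the genotypes' age changes was 0.21 for the members, 0.05 to 0.25 without single libraries and 0.09 without both day 0 libraries numbered 1. Upper-quartile factors moved the median of all genes with age in N2 from -0.09 to -0.22. X-linked minus autosomal medians ran from -0.26 to -0.13 with age in N2, from 0.04 (no filter on low counts) to 0.22 with age in mutants, and from 0.29 to 0.46 between genotypes at day 5. Depth limits sdc-2 most, at no more than 843 counts in a library.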
